A study of Mus musculus with 14 samples.

Results

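The 7 genes described here, Abca1, Abcg1, Mylip, Srebf1, Scd1, Scd2 and Lpcat3, are targets of the liver X receptors (LXR) that move sterols out of the cell, limit their uptake or build and remodel fatty acids. They are named by this role, with earlier results of these data known, out of 21883 protein-coding genes in the RefSeq table of the mouse build GRCm38.p6. A region, the unit counted below, is a stretch of merged ChIP-seq peaks that was present in both replicates of a group. A region was assigned to a member when the nearest end of any protein-coding gene to its strongest summit was an end of that member, within 100 kb. An assignment by nearness does not show that a region regulates the gene, and presence in a peak list stands in for binding.

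LXRα and LXRβ are nuclear receptors that are switched on by oxysterols, oxidised forms of cholesterol. They bind DNA as a pair with a retinoid X receptor such as RXRα, typically at a direct repeat of the nuclear receptor hexamer with 4 bases between its copies (a DR4 element). RXRα also pairs with many other receptors, so its presence at a gene does not name its partner, and LXR itself was not immunoprecipitated here. p300 is a histone acetyltransferase that gathers at active enhancers and promoters. Sp5 is a Wnt-induced zinc finger protein of the Sp family, which binds GC-rich boxes, and Zeb2 is a zinc finger repressor that binds E-boxes.

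Chromatin bound by these 4 proteins was sequenced in mouse embryonic stem cells (mESCs) kept with serum and leukemia inhibitory factor, and in gastruloids at 120 h, which are aggregates of 300 such cells per well in NDiff227 medium given 3 µM CHIR99021, a GSK3 inhibitor that activates Wnt signalling, at 48 h. All cells came from a line that the labels name E14 triple reporter, while its culture protocol describes a double reporter for Brachyury and Sox17. The p300 groups, 2 libraries in mESCs and 2 in gastruloids, carried endogenous p300-V5-miniTurboID (a biotin ligase fusion) and were precipitated with a V5 antibody, and both inputs, 1 a stage, came from that line. The RXRα groups (mESCs and gastruloids) and the Sp5 and Zeb2 groups (gastruloids), 2 libraries each, carried an endogenous HA-FKBP12F36V degron tag on the protein named and were precipitated with HA antibodies. No degrader is mentioned in the labels. Each factor was thus read in a cell line of its own, and the labels do not say whether a line was a single clone. They number replicates 1 and 2 without saying that these were separate cultures. An exact permutation test of 2 libraries against 2 cannot give a p below 1 in 3, so counts are given beside the same counts over all genes, and no test is used.

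The 12 immunoprecipitation lists held between 3111 and 75346 usable peaks, and RXRα replicate 2 in gastruloids was the shortest (replicate 1 held 29867). Fold enrichment and q are the authors' own values for each peak and are used only to describe or rank peaks within a list. The number of sequenced fragments under a summit was recovered from fold and p and came out whole, within 0.01, for 100% of the peaks sampled from each immunoprecipitation list for which it could be solved. Of 500 peaks sampled from each of these lists, between 377 (Zeb2 replicate 2) and 500 could be solved. The median of the solved peaks in a list was between 14 and 32 fragments a summit. Intervals on such numbers are exact Poisson intervals at 95% and cover counting error only, since amplified fragments are not independent molecules. Inputs gave 111 and 514 peaks, of which 0 were assigned to a member. As a check of the stages, all 8 gastruloid marker genes had more p300 regions found in gastruloids only (42 in all) than in mESCs only (1). The 42 were of 49 regions, beside 64% over all assigned regions. The 8 mESC markers had 18 and 23, with more in mESCs only at 4 genes, fewer at 2 and equal numbers at 2. Those 23 were of 57 mESC regions, beside 43.8% over all, so the mESC-only share did not set the mESC markers apart. The 18 were of 47 gastruloid regions, a share below the 64% over all. The 4 endoderm, endothelial and blood markers had 14 of 21 gastruloid regions in gastruloids only, near the 64% over all. In mESCs only they had 2 of 8 mESC regions, beside 43.8%.

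The promoters of 4 of the 7 genes were in the RefSeq promoter table. The 250 bases before the start are shown for 1 promoter of each, near RXRα or Sp5 peaks described below. In Abca1 (chr4:53159896-53160145, minus strand) and at the innermost of 3 listed starts of Srebf1 (chr11:60210472-60210721, minus strand) the capitals mark a relaxed DR4 match. The pattern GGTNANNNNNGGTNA was searched on both strands, overlaps with other motifs were allowed, and its form was set with these promoters in view. It occurred in 118 of 21262 promoters, or 0.555%. Of these 118 windows, 21 (17.8%) lay under an RXRα region of mESCs, beside 14.7% of all windows. Under an RXRα region of gastruloids lay 9 (7.63%), beside 4.00%. The 21 and the 9 both include the Abca1 and Srebf1 windows that were in view when the pattern was set, which raises both shares. Whether RXRα binds at a match was not tested. In Mylip (chr13:45389492-45389741, plus strand) and Lpcat3 (chr6:124662854-124663103, plus strand) the capitals mark GC boxes, GGGCGG on either strand, which 42.6% of promoters held.
Abca1: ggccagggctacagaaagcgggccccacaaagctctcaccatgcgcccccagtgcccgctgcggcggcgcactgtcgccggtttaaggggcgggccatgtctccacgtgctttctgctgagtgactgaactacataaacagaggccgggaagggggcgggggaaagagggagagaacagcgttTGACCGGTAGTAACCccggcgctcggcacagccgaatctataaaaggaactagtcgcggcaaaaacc
Srebf1, innermost start: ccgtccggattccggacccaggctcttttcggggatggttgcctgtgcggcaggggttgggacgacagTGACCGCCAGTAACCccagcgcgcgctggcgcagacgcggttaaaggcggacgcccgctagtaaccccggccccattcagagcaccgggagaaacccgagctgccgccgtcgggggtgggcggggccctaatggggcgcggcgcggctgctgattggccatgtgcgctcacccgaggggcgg
Mylip: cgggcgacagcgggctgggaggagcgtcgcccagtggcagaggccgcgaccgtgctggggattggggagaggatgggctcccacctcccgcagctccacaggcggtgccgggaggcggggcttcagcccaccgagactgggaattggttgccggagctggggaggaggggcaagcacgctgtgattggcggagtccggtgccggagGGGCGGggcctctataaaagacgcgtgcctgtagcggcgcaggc
Lpcat3: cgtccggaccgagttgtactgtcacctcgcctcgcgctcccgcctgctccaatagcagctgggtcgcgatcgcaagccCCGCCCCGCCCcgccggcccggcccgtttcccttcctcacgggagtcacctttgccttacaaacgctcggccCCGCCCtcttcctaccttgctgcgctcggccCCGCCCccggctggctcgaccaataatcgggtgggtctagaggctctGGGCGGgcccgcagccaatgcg

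The match lay 67 to 53 bases before the start of Abca1 and 182 to 168 bases before the innermost start of Srebf1, and on its own strand read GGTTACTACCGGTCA and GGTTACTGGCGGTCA. The windows of Mylip, Lpcat3 and the outer 2 starts of Srebf1 held 0 such matches. The exact repeat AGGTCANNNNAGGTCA was in 0 of the 21262 promoters, and the E-box CACCTG, in 16.9% of them, was in none of the windows of these 4 genes. Abcg1, Scd1 and Scd2 are named only. With no strand in the table for these 3 genes, their ends are called lower and upper by coordinate.

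All 7 genes had an RXRα region in mESCs and 6 of 7 still had one in gastruloids, where few genes did. In mESCs the 7 genes held 25 RXRα regions, and 49.4% of all genes held at least 1. In gastruloids Abca1 held 4 RXRα regions, Abcg1, Srebf1, Scd1, Scd2 and Lpcat3 held 1 each and Mylip held 0, beside 8.73% of all genes with at least 1. Each member had at least 2 RXRα regions in mESCs, and among the 5271 genes with at least 2 RXRα such regions 21.1% had one in gastruloids. Only 8 genes, Abca1 included, had 4 or more RXRα regions in gastruloids. The 4 at Abca1 overlapped 3 RXRα regions of mESCs. Abca1 held 3 in gastruloids with a −log10 q of at least 5, and 3 within 20 kb.

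**Figure D1:**
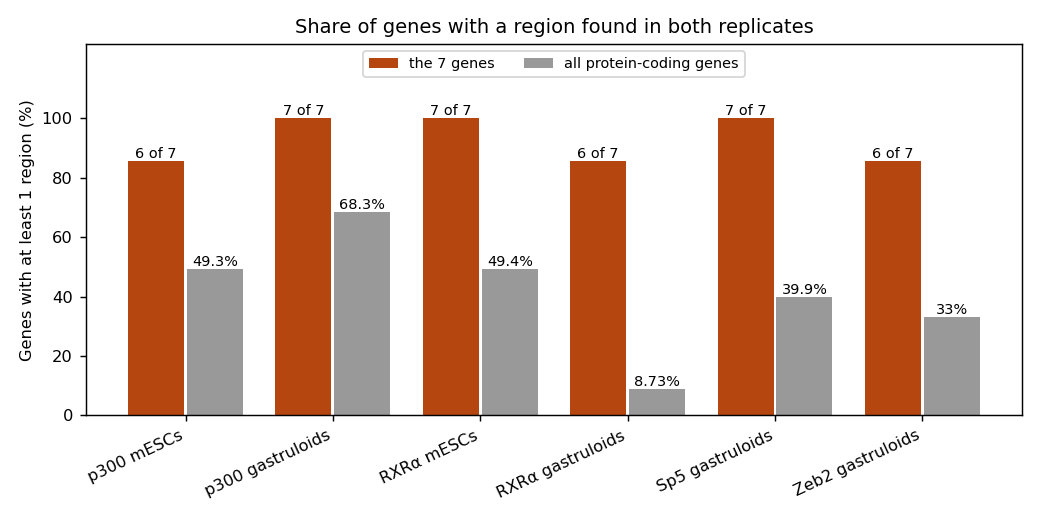
Share of genes (percent, vertical axis) with at least 1 region found in both replicates, for each protein and stage (horizontal axis), in the 7 genes (orange, with counts) and in all 21883 protein-coding genes (grey). The gap is widest for RXRα in gastruloids, 6 of 7 against 8.73%.

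p300 regions were assigned to 6 of the 7 genes in mESCs (49.3% of all genes) and to 7 of 7 in gastruloids (68.3%). Sp5 regions reached 7 of 7 (39.9% of all genes) and Zeb2 regions 6 of 7 (33%). By gene, in the order Abca1, Abcg1, Mylip, Srebf1, Scd1, Scd2 and Lpcat3, p300 gave 6, 6, 2, 4, 4, 4 and 0 regions in mESCs and 8, 7, 9, 3, 5, 4 and 1 in gastruloids. Lpcat3 was the member without a p300 region in mESCs, with 1 peak in each list that did not overlap. Mylip had 2 regions in mESCs and 9 in gastruloids, but 6 in mESCs without p300 replicate 2 of that stage, and 1 and 2 within 20 kb. In the same order RXRα gave 7, 4, 3, 3, 3, 3 and 2 regions in mESCs, Sp5 gave 1, 1, 2, 2, 1, 3 and 1, and Zeb2 gave 1, 2, 1, 1, 1, 0 and 2. Scd2 was thus the gene with the most Sp5 regions and the one without a Zeb2 region, though it had 5 Zeb2 peaks in replicate 1 and 0 in the shorter replicate 2. The regions of all groups fell on 56 separate sites, of which 30 were occupied in 1 group, 11 in 2, 5 in 3, 3 in 4 and 7 in 5.

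**Figure D2:**
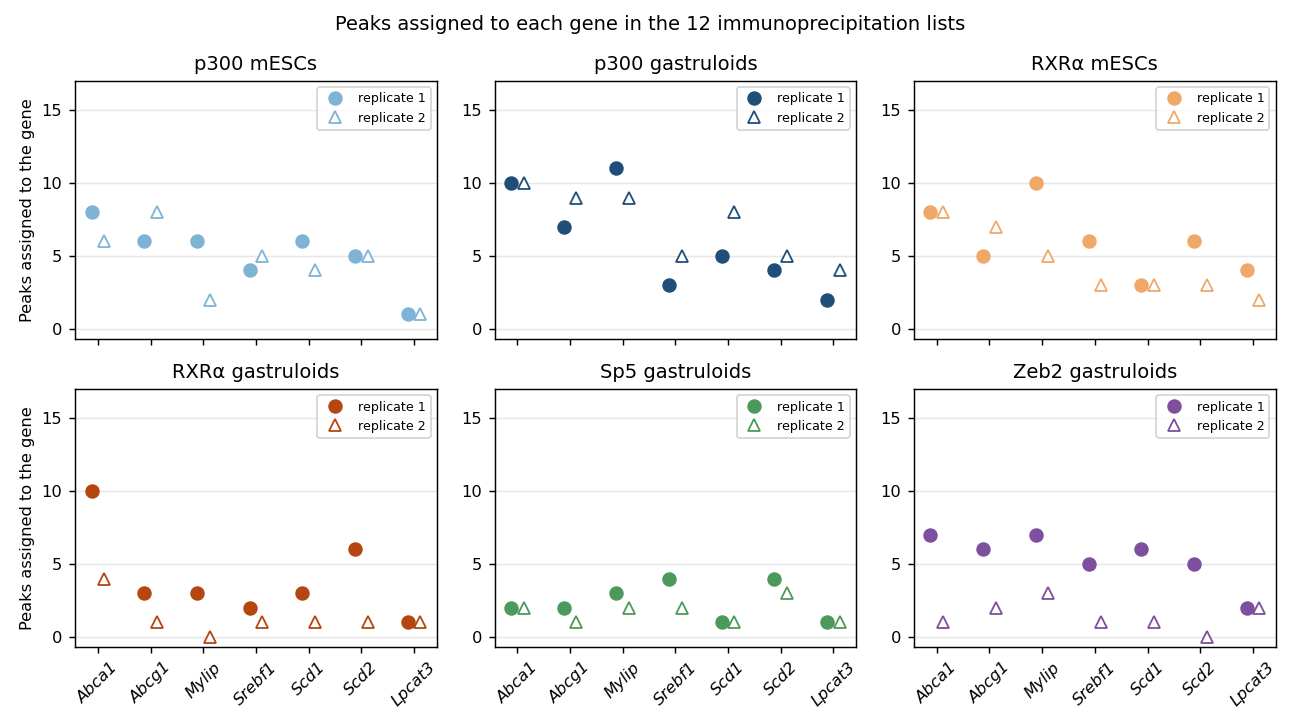
Peaks assigned to each of the 7 genes (horizontal axis) in each list, as a number of peaks (vertical axis), with filled circles for replicate 1 and open triangles for replicate 2 of each protein and stage. RXRα and Zeb2 in gastruloids have many more peaks in replicate 1 (28 and 38 over the 7 genes) than in replicate 2 (9 and 10).

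The 7 genes together had 36 and 31 p300 peaks in the 2 mESC lists and 42 and 50 in the gastruloid lists. RXRα gave 42 and 31 peaks in mESCs but 28 and 9 in gastruloids, so replicate 2 limited the count of 9 RXRα regions there. Per 1000 assigned peaks of all genes, these RXRα counts came to 0.953 and 1.22 in mESCs and 1.09 and 3.27 in gastruloids. Every list other than the short RXRα replicate 2 of gastruloids lay between 0.830 and 1.22, so the higher share was in that list alone. Sp5 gave 17 and 12 peaks and Zeb2 38 and 10. Abca1 accounted for 8 and 8 of these RXRα peaks at the mESC stage and for 10 and 4 at the gastruloid stage. Mylip had 10 and 5 RXRα peaks in mESCs and 3 and 0 in gastruloids, and its absence among the RXRα regions of gastruloids therefore rests on replicate 2. When each peak of RXRα replicate 1 in gastruloids was counted as a region, without replicate 2, the 7 genes had 28 regions in place of 9.

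The cholesterol efflux transporter Abca1, which loads cholesterol onto apolipoprotein A-I at the plasma membrane (chr4:53030789-53159988, minus strand), had the most sites, 16, and the highest RXRα folds among the assigned regions of gastruloids. Its strongest RXRα region in gastruloids, chr4:53030362-53030900, peaked 105 bp beyond the 3′ end of the gene. It had folds of 36.2 and 19.2 in replicates 1 and 2, from 405 fragments (367 to 446) and 65 fragments (50.2 to 82.8). These values placed it at rank 37 of 29867 peaks in the first list and 17 of 3111 in the second, when peaks are ordered by q. In mESCs the RXRα folds at this place were 10.4 and 4.49, from 34 and 15 fragments, in the foremost 20.1% of the first list and 70.9% of the second.

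p300 was also high at this 3′ site in gastruloids, with folds of 23.9 and 25.1 (ranks 31 of 63117 and 84 of 75346) and no peak in either mESC list. Zeb2 had a weak region there, 401 bp beyond the gene, with folds of 6.50 and 4.41, and Sp5 had a peak in replicate 2 alone (4.08). This place and the promoter were the ones at Abca1 where 4 of the 6 protein and stage groups met. At the promoter RXRα was found at both stages, with folds of 11.9 and 11.2 in mESCs and 14.1 and 7.14 in gastruloids. The gastruloid summits lay at 27 and -2 bp from the listed start, downstream of the DR4 match printed above. p300 had a region at this promoter in gastruloids only (6.70 and 4.80), with summits at -129 and -117 bp, and Sp5 had one (11.6 and 6.59) with summits at -149 and -153 bp.

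A second RXRα region in gastruloids lay 1135 bp inside the 5′ end of Abca1 (folds 11.96 and 4.79), and in mESCs it was part of the promoter region. The last one, chr4:53217574-53218474, lay 58241 bp beyond that end, with folds of 20.9 and 7.78 in gastruloids and 12.2 and 9.40 in mESCs. This upstream site held no p300 region at either stage: p300 had a peak in 1 of 2 libraries, with a fold of 2.95 in mESCs and 4.39 in gastruloids. Of the 8 p300 regions of Abca1 in gastruloids, 8 were absent from both mESC lists, beside 64% over all assigned regions. They ranged from the 3′ site above to a region with folds of 4.06 and 3.92. Of its 6 mESC regions, 5 were absent from both gastruloid lists, beside 43.8% over all. The other, 16185 bp inside the 3′ end, had a gastruloid peak in replicate 2 alone (6.96). The p300 regions of Abca1 therefore had no member found as a region at both stages.

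The second transporter, Abcg1 (chr17:31057694-31117984), exports cholesterol toward high-density lipoprotein. RXRα sat at both stages on a site 15798 bp inside the gene, chr17:31073219-31073741. RXRα folds were 19.9 and 16.6 in mESCs (337 and 232 fragments) and 29.1 and 12.3 in gastruloids (265 fragments, 234 to 299, and 55, 41.4 to 71.6). The site was among the foremost peaks of all 4 RXRα lists, at ranks 337 of 49661, 259 of 28112, 105 of 29867 and 69 of 3111. p300 was there too, at 5.17 and 4.30 in mESCs and 9.58 and 10.6 in gastruloids, as was Zeb2 at 12.3 and 6.91. The lower end of Abcg1 was occupied differently. There RXRα had a region in mESCs (9.12 and 6.33) and no peak in either gastruloid list, while p300 was found at both stages with folds of 18.3 and 15.997 in mESCs and 8.55 and 11.7 in gastruloids. Sp5 (9.02 and 6.47) and Zeb2 (10.6 and 6.16) had summits 46 and 72 bp from that end.

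Mylip (chr13:45389742-45411940, plus strand), also known as Idol, is the ubiquitin ligase that sends the LDL receptor for degradation. It was the member without an RXRα region in gastruloids. Its 3 RXRα regions in mESCs were modest: 8.84 and 4.38 at 83317 bp before the gene, 7.65 and 4.46 at 14773 bp before it, and 5.12 and 3.56 at 43144 bp beyond it. The first 2 had no peak in either gastruloid list, and the third had one in replicate 1 (13.5). p300 remained at the first 2 places. At the distal one its folds were 17.9 and 18.1 in mESCs and 10.3 and 11.9 in gastruloids, and at the nearer one 19.2 and 16.1 in mESCs and 8.02 and 9.83 in gastruloids.

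Of the p300 regions of gastruloids at Mylip, 6 of 9 were absent from both mESC lists, beside 64% over all assigned regions. The strongest of them lay 25965 bp before the gene, with folds of 14.3 and 15.6, and 43360 bp beyond it, with 12.94 and 12.96. Neither Sp5 nor Zeb2 had a region at these places. Both met at the promoter instead, where Sp5 reached folds of 15.0 and 11.5 with summits at -37 and -45 bp from the start, beside the GC box at 44 to 39 bases before it. Zeb2 had folds of 9.84 and 9.44 at 582 bp inside the gene, and p300 had 5.55 and 6.83 in gastruloids and no peak there in mESCs.

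Srebf1 (chr11:60199084-60224186, minus strand) encodes SREBP-1, the transcription factor that drives fatty acid synthesis genes. Its RXRα region of gastruloids by the nearest-end rule, chr11:60222693-60223412, lay 1045 bp inside the 5′ end, near the outermost start with a promoter entry. RXRα had folds of 8.16 and 6.60 there in mESCs and 12.9 and 6.42 in gastruloids. Sp5 was high at this place, with folds of 16.04 and 10.2 and ranks 147 of 19714 and 221 of 11932. p300 folds there were 4.09 and 3.96 in mESCs and 6.17 and 6.83 in gastruloids. Beyond the 3′ end, 22222 bp away and within the body of the neighbour Rai1, RXRα had a region in mESCs (9.49 and 7.60) and a peak in 1 of 2 gastruloid libraries (12.1). p300 shared this place at both stages (11.2 and 10.7 in mESCs, 5.39 and 5.16 in gastruloids), as did Sp5 (5.53 and 3.98) and Zeb2 (7.92 and 5.30).

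The RXRα site with the foremost rank in gastruloids at or inside any of the 7 genes was not counted by the rule. It lay at the innermost start of Srebf1, whose promoter with a DR4 match is printed above, and was assigned to Rai1, because the near end of Rai1, which overlaps the 3′ end of Srebf1, was 11418 bp away. RXRα had folds of 30.0 and 12.99 there in gastruloids, from 703 fragments (652 to 757) and 101 (82.3 to 123), at ranks 5 of 29867 and 11 of 3111. In mESCs it had 16.6 and 13.6, at ranks 290 of 49661 and 276 of 28112. RXRα summits lay at -144 and -153 bp from the start in gastruloids and -123 and -151 bp in mESCs, between the DR4 match and the start. It was the only one of the 62 sites at or inside the 7 genes where all 6 groups had a region: p300 folds were 5.94 and 5.33 at the mESC stage and 9.77 and 14.4 at the gastruloid stage, those of Sp5 were 14.5 and 9.97, and those of Zeb2 6.74 and 5.43. Counting it and the regions inside Lpcat3 that went to Emg1 left every total over the 7 genes within 1.5 times its value. This way of counting was chosen after the values had been seen.

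**Figure D3:**
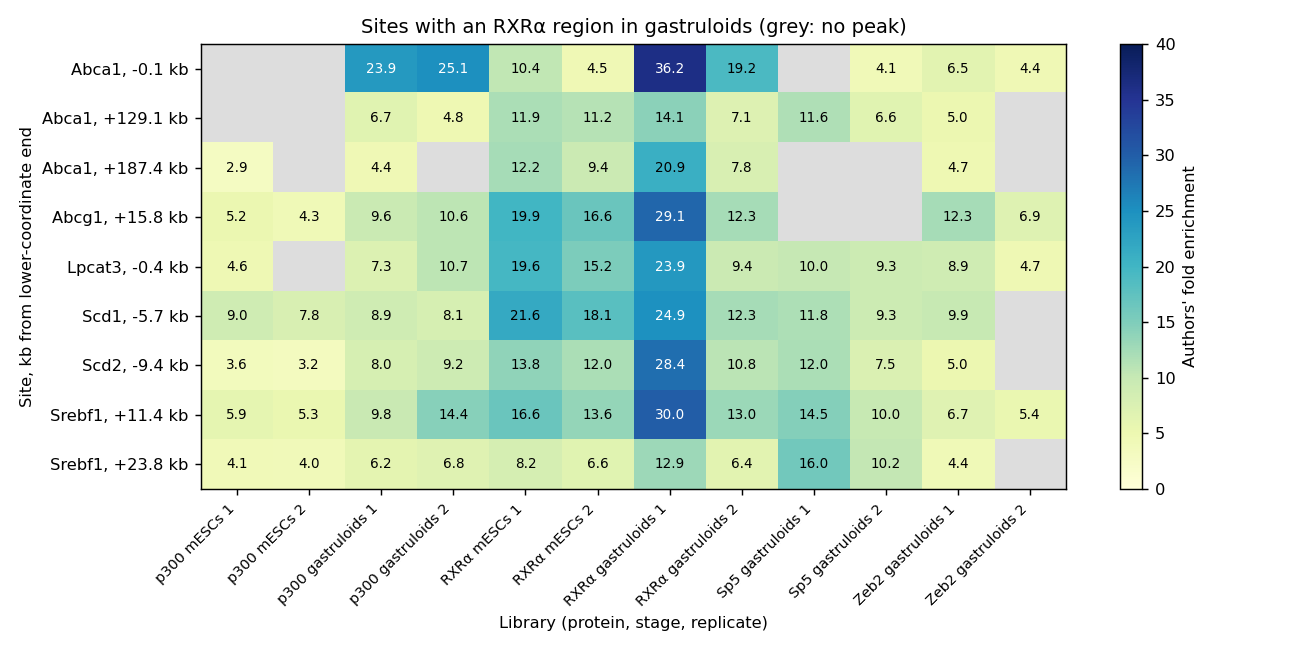
The authors' fold enrichment (colour and printed value) in each of the 12 immunoprecipitation libraries (horizontal axis) at the 9 sites in or near the 7 genes with an RXRα region in gastruloids (vertical axis, kb from the lower-coordinate end of the gene), with grey where a list has no peak. All 9 rows are filled in all 4 RXRα libraries, and the Abca1 row at -0.1 kb is grey in both p300 libraries of mESCs.

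Scd1 (chr19:44394450-44407709) and Scd2 (chr19:44293676-44306864) encode stearoyl-CoA desaturases, which put the double bond into monounsaturated fatty acids, and are neighbours on the chromosome. Each had 1 RXRα region in gastruloids, and each of these was held in common with RXRα in mESCs, p300 at both stages and Sp5. At Scd1 it lay 5747 bp beyond the lower end, chr19:44388478-44389118. RXRα folds were 21.6 and 18.1 in mESCs (578 and 329 fragments, ranks 104 of 49661 and 117 of 28112) and 24.9 and 12.3 in gastruloids (291 and 51 fragments, ranks 100 of 29867 and 79 of 3111). By rank it was the foremost member region of both mESC lists. p300 folds at this place were 9.04 and 7.75 in mESCs and 8.91 and 8.11 in gastruloids, and Sp5 folds were 11.8 and 9.26.

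At Scd2 the RXRα region lay 9427 bp beyond the lower end, chr19:44284031-44284545. RXRα folds were 13.8 and 11.99 in mESCs (358 and 194 fragments) and 28.4 and 10.8 in gastruloids (384 and 47 fragments, ranks 49 of 29867 and 112 of 3111). p300 had folds of 3.59 and 3.18 there in mESCs and 8.03 and 9.16 in gastruloids. It was a low-ranking p300 peak in mESCs (25356 of 44506 and 27993 of 35371) and a high-ranking one in gastruloids (2045 of 63117 and 1849 of 75346). Another place set the genes apart: at 583 bp from the upper end of Scd1 p300 had folds of 12.04 and 16.4 in gastruloids and no peak in mESCs. RXRα was there in mESCs (12.7 and 5.70), with a peak in 1 of 2 gastruloid libraries (4.48). No p300 region of this kind was found at an end of Scd2, whose lower end carried p300 at both stages (5.10 and 4.02 in mESCs, 7.92 and 8.12 in gastruloids).

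Lpcat3 (chr6:124663094-124704716, plus strand) is a lysophospholipid acyltransferase that places polyunsaturated chains into membrane phospholipids. RXRα was strong just before the gene at both stages, chr6:124662418-124663137. Its folds were 19.6 and 15.2 in mESCs (252 and 154 fragments) and 23.9 and 9.40 in gastruloids (201 and 35 fragments, ranks 194 of 29867 and 211 of 3111). The summits, at -389 and -385 bp from the listed start in gastruloids, fell outside the window printed above. Sp5 summits lay within that window, at -110 and -3 bp, with folds of 10.03 and 9.26. p300 had 7.28 and 10.7 in gastruloids and a peak in 1 of 2 mESC libraries (4.62). Inside the gene, RXRα in mESCs had folds of 10.1 and 9.09 at a place assigned to Emg1, 17526 bp from its end.

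**Figure D4:**
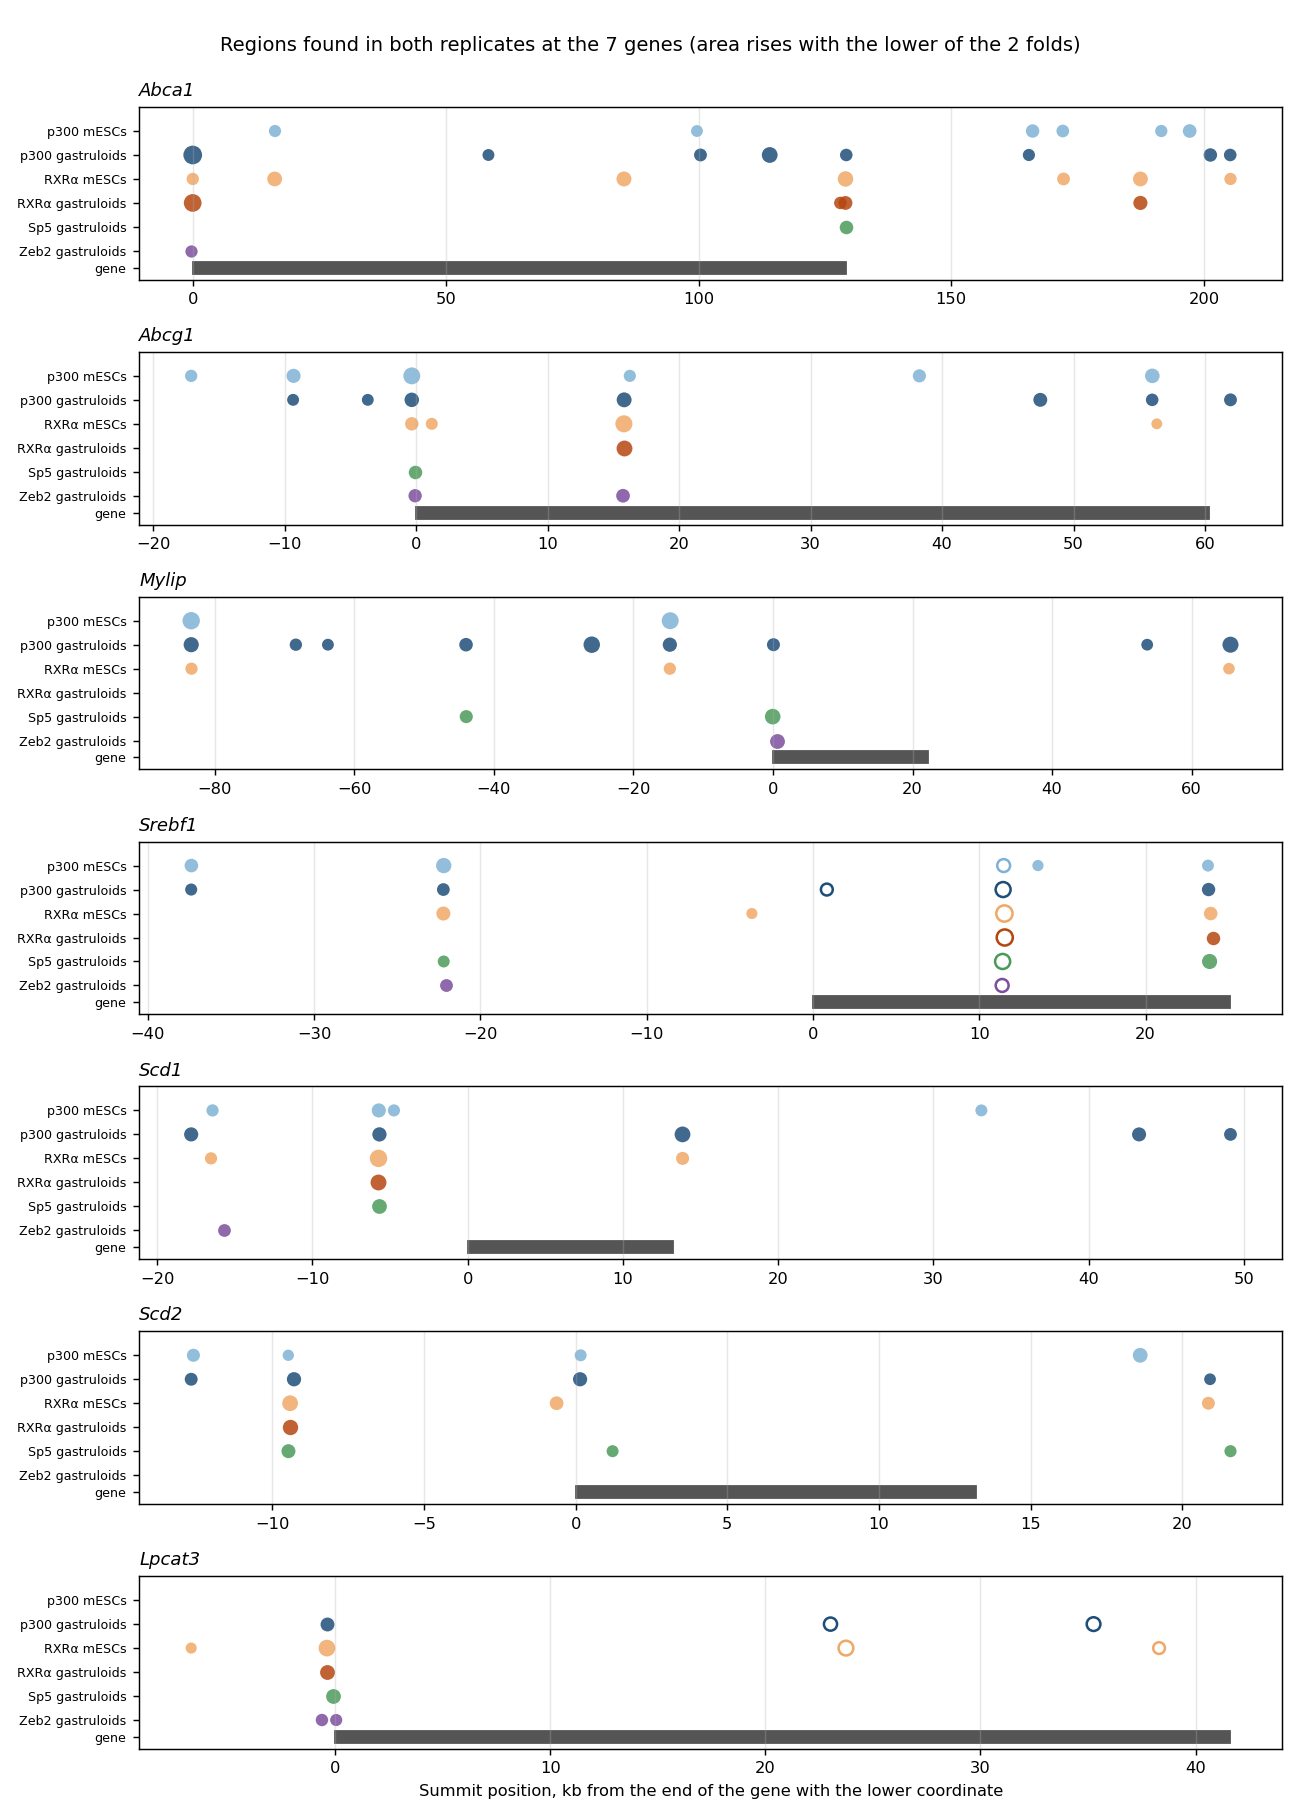
Summits of the regions of each protein and stage (rows) along the 7 genes (horizontal axis, kb from the lower-coordinate end, with a scale of its own for each gene; grey bar, gene body). Filled dots are regions assigned to the gene, open dots lie inside it but were assigned to a neighbour, and dot area rises with the lower of the 2 folds. Each RXRα dot of gastruloids lies at the place of an RXRα dot of mESCs, and the open dots inside Srebf1 line up in all 6 rows.

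Set side by side, the 9 assigned RXRα regions of gastruloids were in the foremost 0.124% to 2.11% of the replicate 1 list by q, and between 0.546% and 45.6% of the much shorter replicate 2 list. Their median folds were 23.9 and 9.40, beside 11.7 and 5.39 over all 2118 assigned RXRα regions of gastruloids. The spread among them was wide. The region inside the 5′ end of Abca1 was the weakest by rank in both lists, and the one at its 3′ end the strongest. In mESCs the 25 member regions had median folds of 8.92 and 5.70, beside 6.55 and 5.04 over all 22307.

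The RXRα regions were then compared between stages. Of the 25 RXRα regions in mESCs, 8 (32%) held an RXRα region of gastruloids, beside 6.62% of all assigned ones. A further 10 had a peak in 1 of 2 gastruloid libraries, and 7 (28%) were absent from both, beside 63.5% of all. Read in the longer gastruloid list alone, 18 of 25 (72%) had a peak, beside 36.2% of all. In the other direction 0 of 9 gastruloid regions were absent from both mESC lists, beside 475 of all 2352 RXRα regions of gastruloids. Those 2352 include regions not assigned to any gene, and 2118 were assigned. All 9 held an RXRα region of mESCs, beside 69.9% of all assigned ones. The 7 regions absent from gastruloids were 2 at Mylip and 1 each at Abca1, Abcg1, Srebf1, Scd1 and Lpcat3.

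These classes changed with the lengths of the lists and with single libraries. With all 4 RXRα lists limited to their foremost 3111 peaks, 2 member regions were found in gastruloids only and 0 in mESCs only. Without RXRα replicate 2 of gastruloids, 6 were found in gastruloids only, and 20 regions were shared in place of 9. Without replicate 1 of gastruloids, 17 were found in mESCs only. Of the mESC libraries, leaving out replicate 1 gave 13 and leaving out replicate 2 gave 22 regions found in mESCs only.

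p300 regions of 1 stage alone were common at the 7 genes, as they were over all genes. Of the 37 p300 regions in gastruloids, 21 (56.8%) were absent from both mESC lists, beside 64% over all assigned regions. Of the 26 in mESCs, 11 (42.3%) were absent from both gastruloid lists, beside 43.8%. Both shares lay near or below the background. The genes differed among themselves: gastruloid-only p300 regions numbered 8 at Abca1, 6 at Mylip, 3 at Abcg1, 3 at Scd1 and 1 at Scd2, and 0 at Srebf1 and Lpcat3. Shared p300 regions numbered 4 at Abcg1, 3 at Srebf1, 3 at Scd2, 2 at Mylip and 1 at Scd1. With lists of 35371 peaks each, 9 regions were gastruloid-only and 14 mESC-only, so the larger class changed from gastruloids to mESCs. Counting only regions within 20 kb of a gene end left 9 gastruloid-only and 5 mESC-only. Without p300 replicate 2 of mESCs, the mESC-only regions numbered 18.

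Regions of RXRα and p300 overlapped at both stages. In mESCs 13 of the 26 p300 regions (50%) held an RXRα region, beside 37.6% of all, and 13 of the 25 RXRα regions (52%) held p300, beside 42.4%. In gastruloids 7 of the 37 p300 regions (18.9%) held RXRα, beside 4.28%. Conversely 7 of the 9 RXRα regions (77.8%) held p300, beside 86%. The 2 without p300 were both at Abca1, at 1135 bp inside its 5′ end and at 58241 bp beyond it. Sp5 was in 11 of the 37 p300 regions (29.7%), beside 20.9%, and Zeb2 in 6 (16.2%), beside 17.1%. All 11 Sp5 regions of the 7 genes lay at p300 regions of gastruloids, as did 84.9% of all assigned Sp5 regions, and 7 of 8 Zeb2 regions did, beside 78.1%. Without replicate 2 of RXRα in gastruloids 16 p300 regions held RXRα in place of 7, and without replicate 2 of Zeb2 23 held Zeb2 in place of 6.

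The regions also differed in where they lay. A distance of at most 1 kb from a gene end was found for 2 of 26 p300 regions in mESCs (7.69%, beside 8.86% of all) and 7 of 37 in gastruloids (18.9%, beside 22.5%). RXRα had 6 of 25 that close in mESCs (24%, beside 19.9%) and 3 of 9 in gastruloids (33.3%, beside 43.2%). Sp5 had 4 of 11 (36.4%), beside 64.6% of all assigned Sp5 regions, and Zeb2 had 5 of 8 (62.5%), beside 49.4%. The farthest region assigned to a member was a p300 region 83.4 kb from Mylip. The nearest ones left out by the limit of 100 kb lay 111 kb from Abca1 (RXRα, mESCs) and 115 kb from Mylip (p300, mESCs).

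Genes upstream of these targets were also examined. Of the 5 LXR and RXR receptor genes, 4 had RXRα regions in mESCs (49.4% of all genes): 3 at Rxra, 2 at Rxrg and 1 each at Rxrb and Nr1h2 (LXRβ), with 0 at Nr1h3 (LXRα). In gastruloids 0 of the 5 had one, beside 8.73% of all genes. At Rxra itself p300 had 4 regions in mESCs and 9 in gastruloids. Of the latter, 6 were absent from both mESC lists, near the 64% over all assigned regions. Of 4 enzymes that make or clear oxysterols, 3 had RXRα regions in mESCs and 1 in gastruloids, which was Cyp46a1, the cholesterol 24-hydroxylase of neurons (folds 23.4 and 9.66).

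Among 25 other LXR targets, 20 had RXRα regions in mESCs (49.4% of all genes) and 8 in gastruloids, the latter share being 32%, beside 8.73% of all genes. Those with the most in mESCs were Elovl6 (7 regions), Arl4c (6), Lpin1 (5) and Fads2 (5), genes of fatty acid elongation, vesicle traffic, phosphatidate breakdown and desaturation. Of these, Arl4c and Lpin1 had 1 region each in gastruloids. Others with one, named here after their values were seen, included Fasn, Acaca, Elovl5, Fads1 and Mid1ip1, most of which act in fatty acid synthesis. Elovl5 had the highest folds of them, 32.5 and 17.5. p300 regions were at 22 of the 25 in gastruloids (68.3% of all genes) and at 17 in mESCs (49.3%). Of these regions 43 of 71 were found in gastruloids only (64% over all regions) and 21 of 49 in mESCs only (43.8%), near the background.

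The 27 genes of sterol synthesis and uptake, which answer chiefly to SREBP, included 17 with RXRα regions in mESCs (49.4% of all genes) and 4 (14.8%) in gastruloids, beside 8.73% of all genes. Among these were Sc5d and Hsd17b7, enzymes of cholesterol synthesis, named after their values were seen. Insig1 (5 regions in mESCs), Sqle (3), Scap (3) and Srebf2 (2, tied with Insig2, Mvk and Pmvk and named for its larger number of p300 regions in mESCs) had 0 RXRα regions in gastruloids. Here p300 was found at 16 genes in mESCs (49.3% of all genes) and 25 in gastruloids (68.3%), with 31 of 52 regions in gastruloids only (64% over all regions) and 14 of 32 in mESCs only (43.8%).

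By the number of peaks in each of the 12 lists, the genes most like the members were Ralgps2 for Abca1 (Euclidean distance of 0.98 on log2 of peaks plus 1), Atp11b for Abcg1 (0.79), Lemd1 for Mylip (0.95), Rnft1 for Srebf1 (0.77), Gprc5c for Scd1 (0.64), Cnn3 for Scd2 (1.10) and Ddx52 for Lpcat3 (0.74). The distance weighs how many peaks were near a gene in each list and says nothing of where they lay. For 1 pair, Scd1 and Gprc5c, the RXRα peaks in gastruloids numbered 3 and 1 at Scd1 and 2 and 1 at Gprc5c.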

How the data were processed

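ChIP-seq peak lists of 12 immunoprecipitations and 2 inputs were used as deposited. Per the submitters' processing notes, fastp 0.20.1, BWA 2.2.1 and MACS2 2.2.7 were used with build GRCm38 (mm10). The role of each setting and the control behind each list are not given in the sources used here. Each deposited peak has a score, a fold enrichment (a ratio of summit to local background), and the authors' −log10 p-value and −log10 q-value. All q lay under 0.05, which was tested on the values. Total read depth is unknown. Fragments under summits were solved from the deposited fold and p-value.

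Peaks touching an input peak were removed. Overlap of at least 1 bp made a shared peak, and assignment used the RefSeq table of GRCm38.p6. Stage-only means absence from both lists of the other stage. The overlap, merging and fragment steps were tested on simulated data. Peak lists hold no counts, so no model was fitted. Analysis used Python 3.11.15, pandas 2.3.3, numpy 2.4.6 and scipy 1.17.1. All 7 members are named in every group. Receptors are all named, and of the other LXR targets and the sterol genes the 4 with the most RXRα regions in mESCs, ties going to more p300 regions in mESCs, then by name. Members and lists were chosen with earlier results of these data known. Alternatives were a −log10 q of at least 5, an overlap of 50% of the shorter, a limit of 20 kb, input peaks kept, lists of equal length and leaving out each library. Some genes of these lists are counted but not reported by name here.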

Additional observations from a re-analysis of the deposited data

How the results depend on the processing

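Keeping input peaks, asking for an overlap of 50% of the shorter peak, or counting regions inside a member to it (chosen after seeing the data) left all 16 totals over the 7 genes within 1.5 times their value. With a −log10 q of at least 5, Zeb2 regions numbered 4 in place of 8 and RXRα regions found in mESCs only 4 in place of 7. Within 20 kb, p300 regions numbered 17 in mESCs and 21 in gastruloids, with 9 in gastruloids only and 5 in mESCs only, since fewer regions qualify. With lists limited to 3111 peaks, p300 gave 1 region in mESCs and 3 in gastruloids, RXRα 7 in mESCs, Sp5 4 and Zeb2 4, and RXRα regions found in 1 stage only were 2 in gastruloids and 0 in mESCs. With p300 lists of 35371 peaks, 9 p300 regions were gastruloid-only and 14 mESC-only, in place of 21 and 11. p300 regions of gastruloids held RXRα in 2 cases with 3111 peaks a list, Sp5 in 4 with 11932 and Zeb2 in 2 with 12222.

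Leaving out 1 library counts every peak of the other as a region, which raises totals by construction. Regions then ranged from 31 to 36 (p300, mESCs), 42 to 50 (p300, gastruloids), 31 to 42 (RXRα, mESCs), 9 to 28 (RXRα, gastruloids), 12 to 17 (Sp5) and 10 to 38 (Zeb2). p300 classes ranged from 21 to 30 (gastruloid-only), 11 to 18 (mESC-only) and 13 to 16 (shared). RXRα classes ranged from 0 to 6 (gastruloid-only), 7 to 22 (mESC-only) and 9 to 20 (shared). p300 regions of gastruloids holding RXRα ranged from 7 to 16, Sp5 from 10 to 13 and Zeb2 from 6 to 23, and those of mESCs holding RXRα from 13 to 16. No paired analysis was possible because the results are counts of regions present in both replicates and come from no test. Lists of unknown depth and unequal length limit every count of absence, and a missing peak is not evidence of no binding, in the short second lists of RXRα and Zeb2 in gastruloids included.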
